A study of Canis lupus familiaris with 20 samples.

Results

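The genes described here are 4 neighbours on dog chromosome 9, from 5.859 to 5.976 Mb in CanFam3.1, of 24580 genes in the deposited count table: ENSCAFG00000024944, ENSCAFG00000028912, ENSCAFG00000024792 and ENSCAFG00000032631. They were picked as a stretch of neighbouring genes that were at least 2-fold higher in affected than in control dogs at day 9, and the same stretch was also at least 2-fold higher at day 14 and at day 14 against day 9 in controls. Those 3 comparisons chose the genes, so their values in them are given as a description, with no test. All 4 passed the filter on low counts, as the choice required. The table pairs identifiers with no names, and 0 of its identifiers matched the RefSeq table of the assembly UU_Cfam_GSD_1.0, so a gene is called here by its identifier or by its order along the chromosome, as the first, the second, the third or the fourth gene. The position was proposed as that of the CD300 receptor genes. That proposal could not be checked against the 4 identifiers.

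RNA was sequenced from epiphyseal cartilage next to the growth plates of the vertebra T12, with tissue from its cranial and caudal ends pooled for each animal. Mucopolysaccharidosis VII (MPS VII) is a lysosomal storage disease in which glycosaminoglycans accumulate for lack of the enzyme beta-glucuronidase, and the dogs belong to a naturally occurring model with a missense change in GUSB. The groups were MPS VII dogs (homozygous for the change) at postnatal day 9, heterozygous control dogs at day 9, MPS VII dogs at day 14 and heterozygous control dogs at day 14, with 5 animals and 5 libraries in each. The controls therefore also carry 1 copy of the change, and no group lacks it. Affected and control animals came from the same litters by the study's design, but the labels tie no library to a litter or a sex.

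CD300 receptors are membrane proteins of macrophages, monocytes, granulocytes and related cells in human and mouse, each with an immunoglobulin-like outer domain. Several bind lipids that become exposed on dying cells. Some members inhibit through their own cytoplasmic tail, which recruits phosphatases, and others activate through adaptor proteins, so neighbouring members can act in opposite ways. In growing epiphyses, cells of the myeloid lineage arrive with the vessels that enter the cartilage before bone forms there. In the RefSeq table of UU_Cfam_GSD_1.0, chromosome 9 holds 4 genes named for CD300. CD300LF, CD300E and CD300A lie near each other there, with 12 genes between CD300LF and CD300A counting CD300E, and 11 of those carry no gene name, 7 of them protein-coding. CD300LG stands apart, 269 genes further on. A CanFam3.1 genome, protein or promoter sequence was not used here.

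Total counts were 21419930 to 28028365 in the day 9 libraries and 15772761 to 22471728 in the day 14 libraries, so age and depth moved together. Values are normalised read counts scaled to library size (CPM, with scaling by TMM, the trimmed mean of M values), and fold changes are on the log2 scale from edgeR's quasi-likelihood fit over 14550 tested genes in all 20 libraries. A gene is called changed at a Benjamini-Hochberg adjusted p under 0.05. MPS VII day 9 replicate 3 stood apart from its group on the second and the third principal component of log2 CPM (19.05% and 11.4% of the variance). On the second it stood at 55.6, against -9.96 to 2.53 in the other MPS VII libraries of day 9. On the third it stood at 85.0, against -17.8 to -4.70 in those libraries. Values without it are given where they bear on the 4 genes. In bulk tissue, fewer cells that express a gene and less RNA per cell cannot be told apart. Markers of cartilage, bone and myeloid cells could not be looked up without gene names, so the tissue and the share of myeloid cells were not checked.

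ENSCAFG00000024944, ENSCAFG00000028912 and ENSCAFG00000024792 lie on the plus strand and ENSCAFG00000032631 on the minus strand. ENSCAFG00000024944 spans 3879 bases and ends at 5862730, with 3 exons and 1900 exon bases. Next comes ENSCAFG00000028912, from 5889416 to 5897046, with 3 exons and 4059 exon bases. ENSCAFG00000024792 runs from 5906878 to 5913176 with 6 exons and 2782 exon bases, and ENSCAFG00000032631 spans 27061 bases from 5949375 with 8 exons and 5324 exon bases. No other annotated gene overlaps any of the 4, and they are separated by 26685, 9831 and 36198 bases. The 4 gene models have 1 feature in common: the longest exon is the one at the 3' end and holds 78.5%, 81.9%, 68.6% and 76.3% of the exon bases in order along the chromosome. Of the 12515 tested genes with at least 3 exons, 55.7% had their longest exon at the 3' end, and the longest exon held a median of 40.4% of exon bases. How the authors treated reads that match several places is not stated in the labels or file headers used here, so reads shared between near-identical copies could be split among these genes, and each gene's own value is uncertain to that extent.

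At day 9 all 4 genes were higher in MPS VII than in control cartilage in every library, by 2.06 to 3.50 on the log2 scale (median 2.55, against 0.02 over all tested genes). The first gene, ENSCAFG00000024944, stood at 8.08, 9.52, 7.15, 9.40 and 9.88 CPM in the 5 MPS VII dogs, against 1.74, 1.37, 1.45, 1.57 and 1.48 CPM in the 5 controls. These libraries lay close together within each group and far apart between groups. The means were 8.81 ± 1.15 CPM in MPS VII and 1.52 ± 0.143 CPM in controls (SD, n = 5 each). The log2 fold change was 2.53 ± 0.20 (SE), or 5.76-fold.

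ENSCAFG00000028912, the second gene, had the highest fold of the 4 from the lowest control level. It held 2.36, 4.26, 3.87, 5.08 and 2.67 CPM in MPS VII dogs of day 9, against 0.488, 0.171, 0.264, 0.696 and 0 CPM in controls. The control values rest on 0 to 14 counts per library, 36 counts in all, against 418 counts over the MPS VII libraries, and the library with 0 counts allows up to 0.134 CPM (3 counts, counting error only), or 0.269 CPM if both mates of a pair were counted (6 counts). The log2 fold change was 3.50 ± 0.48, and it ran from 3.19 without control day 9 replicate 5, the library at 0, to 3.89 without control day 9 replicate 4.

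The third gene, ENSCAFG00000024792, stood at 5.81, 6.97, 5.37, 6.39 and 4.04 CPM in MPS VII dogs of day 9, against 2.34, 0.939, 0.793, 1.39 and 1.34 CPM in controls. The groups did not overlap; control replicate 1, at 2.34 CPM, was above the other 4 controls, and without it the log2 fold change of 2.06 ± 0.27 was 2.36. ENSCAFG00000032631, the fourth gene, stood at 2.27, 2.13, 4.39, 4.47 and 4.09 CPM in MPS VII, against 0.558, 0.726, 0.528, 0.232 and 0.806 CPM in controls. Its MPS VII libraries fell into a lower pair and 3 higher ones, and even the lower pair was above every control. The log2 fold change was 2.57 ± 0.33. Without MPS VII replicate 3, which stands apart on the principal components, the day 9 log2 fold changes were 2.59, 3.48, 2.07 and 2.46 in order along the chromosome, close to those with it. Of all tested genes, 6.18% were called higher in MPS VII at day 9 and 5.26% had all MPS VII libraries above all controls; the 4 genes were chosen on this comparison, and their counts of 4 of 4 for both are not evidence beyond that choice.

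**Figure D1:**
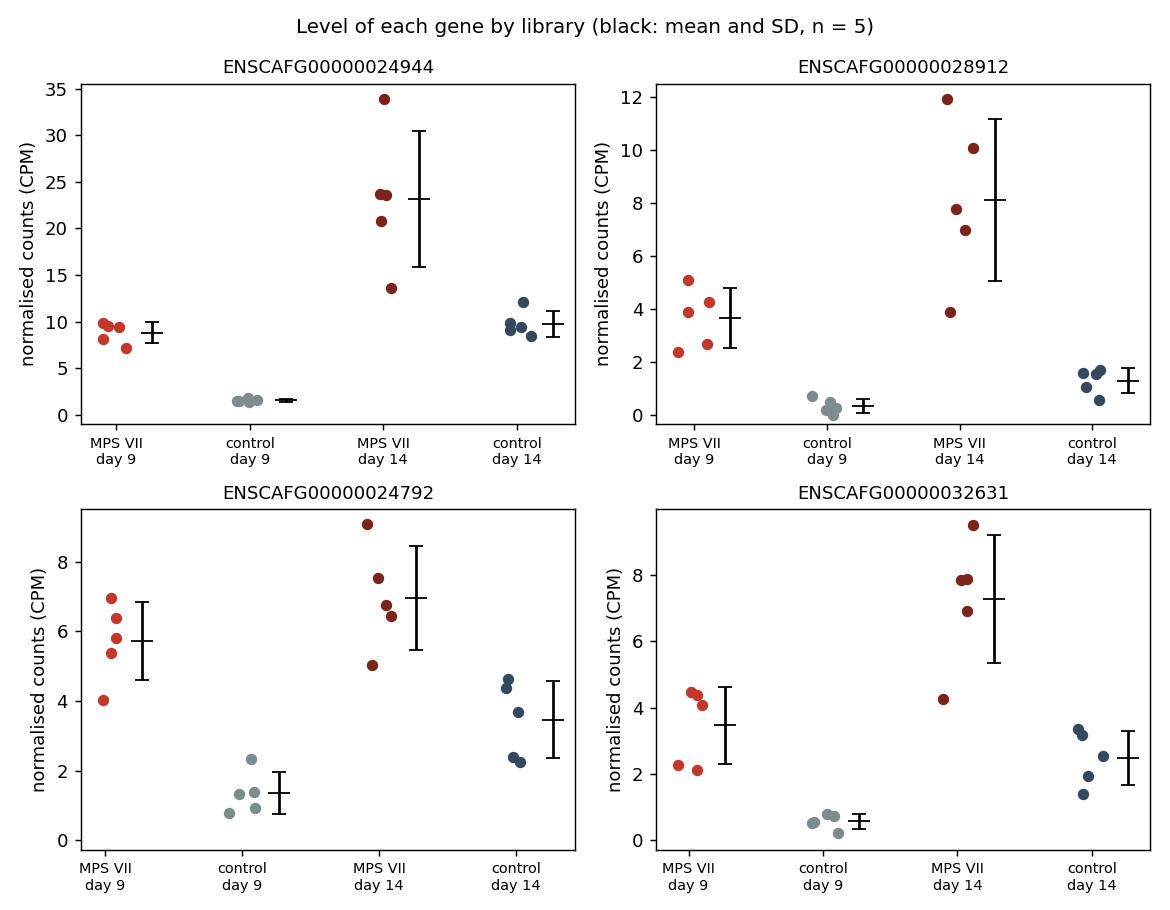
Normalised counts (CPM) of each of the 4 genes in every library, by genotype and age, with the mean and SD of 5 libraries in black. At each age, all MPS VII libraries lie above all control libraries for every gene, with the narrowest gap in ENSCAFG00000024792 at day 14 (5.03 against 4.64 CPM).

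At day 14 the same 4 genes were higher in MPS VII than in controls by 1.00 to 2.66 on the log2 scale (median 1.40, against 0.03 over all tested genes). ENSCAFG00000024944 stood at 23.7, 33.9, 20.8, 23.6 and 13.6 CPM in MPS VII dogs, against 8.43, 9.08, 9.41, 12.1 and 9.81 CPM in controls. The groups did not overlap, but MPS VII replicate 5 was only a little above the highest control. Means were 23.1 ± 7.30 CPM in MPS VII and 9.77 ± 1.40 CPM in controls (SD, n = 5 each). The log2 fold change was 1.24 ± 0.17, or 2.37-fold. It ranged from 1.06 without MPS VII day 14 replicate 2, the highest library, to 1.38 without replicate 5, the lowest.

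For ENSCAFG00000028912 the day 14 values were 7.76, 11.9, 6.98, 10.1 and 3.88 CPM in MPS VII dogs, against 1.53, 1.06, 1.70, 0.563 and 1.56 CPM in controls. It again had the largest fold of the 4, with a log2 fold change of 2.66 ± 0.42 or 6.31-fold, and the gap between the groups was wide. The counts behind it were 814 over the MPS VII libraries and 138 over the controls.

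ENSCAFG00000024792 differed least at day 14, with 7.53, 9.09, 6.75, 5.03 and 6.45 CPM in MPS VII and 4.64, 3.70, 2.38, 2.25 and 4.37 CPM in controls. The lowest MPS VII library lay just above the highest control, and the log2 fold change was 1.00 ± 0.26, right at the 2-fold limit by which the stretch was chosen. It was under that limit in 8 of 25 alternative settings, 4 that left out a library and 4 others, and ran from 0.88 to 1.13 over all of them. ENSCAFG00000032631 held 7.85, 9.52, 6.92, 7.89 and 4.27 CPM in MPS VII, against 1.94, 3.36, 3.18, 1.41 and 2.55 CPM in controls, with a log2 fold change of 1.55 ± 0.29. MPS VII replicate 5 was the lowest of its group in the first, the second and the fourth gene, and replicate 4 was the lowest in the third. All 4 genes were called higher at day 14, where 11.3% of tested genes were called higher and 9.27% did not overlap in that direction; these values too took part in the choice.

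With age in controls, all 4 genes were higher at day 14 than at day 9, by 1.34 to 2.68 on the log2 scale (median 2.04, against -0.06 over all tested genes). The order of the genes differed from that between genotypes: ENSCAFG00000024944 had the largest change, at 2.68 ± 0.20 on that scale, with 9.77 ± 1.40 CPM at day 14 and 1.52 ± 0.143 CPM at day 9. ENSCAFG00000032631 stood at 2.49 ± 0.824 CPM at day 14 and 0.570 ± 0.221 CPM at day 9, a log2 fold change of 2.09 ± 0.33. In both genes every day 14 control was above every day 9 control. ENSCAFG00000028912 averaged 1.28 ± 0.470 CPM at day 14 and 0.324 ± 0.273 CPM at day 9, and ENSCAFG00000024792 averaged 3.47 ± 1.11 CPM at day 14 and 1.36 ± 0.603 CPM at day 9. Their control libraries overlapped between the ages, with log2 fold changes of 1.996 ± 0.49 and 1.34 ± 0.28. All 4 genes were called, where 21.8% of tested genes were called higher and 20.2% did not overlap in that direction, and this comparison too took part in the choice. Depth was lower at day 14, and its part in the age changes was not tested.

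The change from day 9 to day 14 in MPS VII dogs was not among the comparisons that chose the genes, although its libraries entered them, so its p-values are not independent of the choice. In it 3 of the 4 genes rose, where 12.7% of tested genes were called higher. ENSCAFG00000024944 stood at 23.1 ± 7.30 CPM at day 14 and 8.81 ± 1.15 CPM at day 9 (SD, n = 5 each). It rose by 1.39 ± 0.17 on the log2 scale (edgeR quasi-likelihood test, adjusted p = 5.88e-06), and its libraries did not overlap. ENSCAFG00000032631 rose by 1.07 ± 0.29 (edgeR adjusted p = 0.0109), with 7.29 ± 1.93 CPM at day 14 and 3.47 ± 1.17 CPM at day 9. ENSCAFG00000028912 rose by 1.15 ± 0.39 (edgeR adjusted p = 0.0377), with 8.12 ± 3.06 CPM at day 14 and 3.65 ± 1.13 CPM at day 9. That call was lost when any 1 of 5 libraries was left out: MPS VII day 9 replicate 1 or 5 or MPS VII day 14 replicate 1, 2 or 4, with edgeR adjusted p of 0.0504 to 0.0950 and log2 fold changes of 1.01 to 1.17. ENSCAFG00000024792 did not pass, with 6.97 ± 1.49 CPM at day 14, 5.72 ± 1.11 CPM at day 9 and a log2 difference of 0.29 ± 0.25 (edgeR adjusted p = 0.429). Without MPS VII day 9 replicate 3 the changes were 1.35, 1.20, 0.29 and 1.20 in order along the chromosome, with 3 of 4 called as before. Only the first gene had no overlap between the ages, where 7.96% of tested genes had none in that direction.

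**Figure D2:**
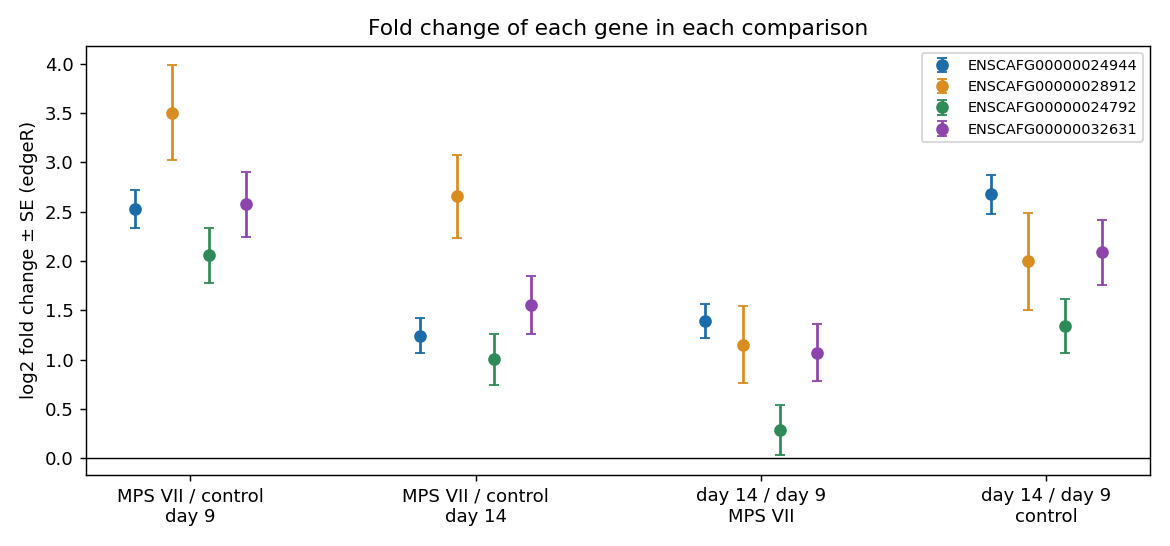
Log2 fold change with its standard error (edgeR) of each gene for MPS VII over control at day 9 and day 14 and for day 14 over day 9 in MPS VII and in controls. ENSCAFG00000028912 is highest of the 4 between genotypes (3.50 and 2.66), and ENSCAFG00000024944 is highest with age (1.39 in MPS VII and 2.68 in controls).

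The age change was smaller in MPS VII than in controls for all 4 genes, by 0.84 to 1.28 on the log2 scale, which is the same quantity as the smaller gap between genotypes at day 14 than at day 9. The difference of the age changes was called for ENSCAFG00000024944 (-1.28 ± 0.26, edgeR adjusted p = 0.00966) and not for ENSCAFG00000024792 (-1.05 ± 0.37, edgeR adjusted p = 0.120), ENSCAFG00000032631 (-1.02 ± 0.43, edgeR adjusted p = 0.203) or ENSCAFG00000028912 (-0.84 ± 0.62, edgeR adjusted p = 0.502). Of tested genes, 2.43% were called in that direction. This difference is built from the comparisons that chose the genes, so it is not independent of them.

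Across the 4 groups each gene was highest in MPS VII at day 14 and lowest in controls at day 9. Most of this order was set by the 3 comparisons that chose the genes. They put controls of day 9 lowest and MPS VII of day 14 above the controls of each age. Left free were the order of the MPS VII groups by age and that of MPS VII at day 9 and controls at day 14. The middle of the order differed between genes. ENSCAFG00000024944 stood at 8.81 CPM in MPS VII of day 9 and 9.77 CPM in controls of day 14, and those libraries overlapped (7.15 to 9.88 and 8.43 to 12.1 CPM). For ENSCAFG00000028912 the MPS VII libraries of day 9, at 2.36 to 5.08 CPM, were all above the controls of day 14, at 0.563 to 1.70 CPM. ENSCAFG00000024792 and ENSCAFG00000032631 had higher means in MPS VII of day 9 than in controls of day 14, with overlapping libraries (4.04 to 6.97 and 2.25 to 4.64 CPM for the third gene, 2.13 to 4.47 and 1.41 to 3.36 CPM for the fourth). These 2 groups differ in both genotype and age, and the gap between them was not tested. The share of all tested genes without overlap between them was not counted, so the separation of the second gene has no background beside it.

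Levels of different genes were compared per exon length, as CPM per kb of exon. Reads shared between copies, or mates counted singly in some genes more than in others, could shift these levels and the shares that follow. This was not tested. On that scale ENSCAFG00000024944 was the highest of the 4 in 20 of 20 libraries, with means of 4.64 in MPS VII and 0.801 in controls at day 9, and of 12.2 in MPS VII and 5.14 in controls at day 14. ENSCAFG00000024792 was next in 19 of 20 libraries. ENSCAFG00000028912 was lowest in 8 libraries and ENSCAFG00000032631 in the remaining 12.

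The makeup of the 4-gene sum per exon base also moved, and these shares were not tested because the same values chose the genes. The first gene took 56.3% ± 5.33 of it in MPS VII and 55.2% ± 6.17 in controls at day 9, and 67.0% ± 2.03 in MPS VII and 71.5% ± 7.50 in controls at day 14. Its mean share was higher at day 14 in both genotypes, and MPS VII and control libraries overlapped at each age. The second gene took 10.8% ± 2.59 in MPS VII and 5.19% ± 4.07 in controls at day 9, and 10.8% ± 1.87 in MPS VII and 4.45% ± 1.71 in controls at day 14. At day 14 those libraries did not overlap (8.50% to 13.6% in MPS VII and 1.83% to 6.14% in controls). The third gene took 25.0% ± 4.19 in MPS VII and 32.0% ± 7.19 in controls at day 9, against lower shares of 14.5% ± 3.92 in MPS VII and 17.4% ± 5.71 in controls at day 14. Mean shares of ENSCAFG00000032631 lay between 6.57% and 7.96% in the 4 groups.

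**Figure D3:**
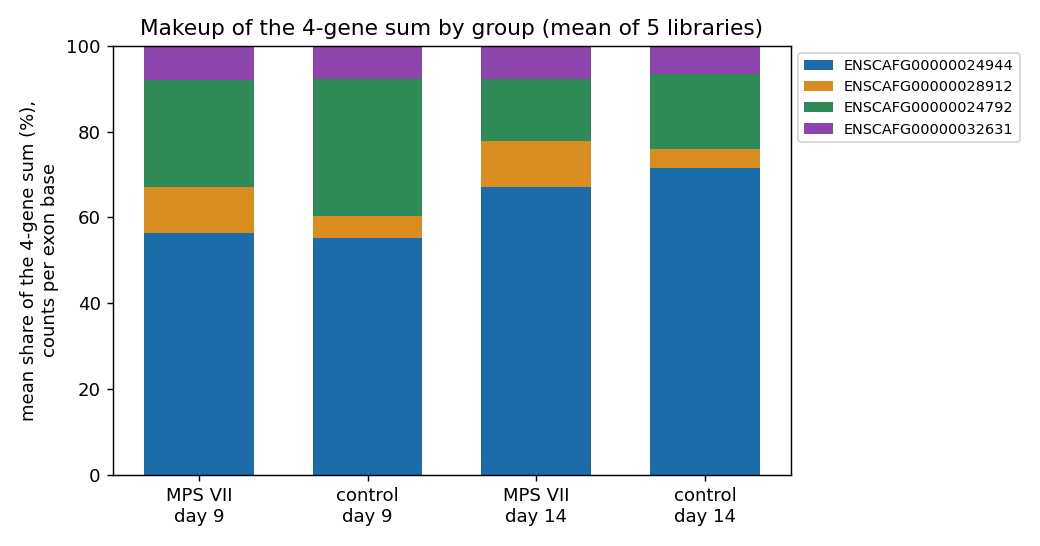
Mean share of each gene in the sum of the 4 genes, in counts per exon base, for each group of 5 libraries (stacked bars, percent). ENSCAFG00000024944 takes 55.2% to 56.3% at day 9 and 67.0% to 71.5% at day 14, and ENSCAFG00000028912 takes 10.8% in both MPS VII groups against 5.19% and 4.45% in controls.

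Within groups, no pair of the 4 genes passed a test of shared variation from animal to animal. Deviations of log2 CPM from the group means, which did not enter the choice of the genes, were correlated over the 20 libraries for the 6 pairs. Pearson's r ran from -0.03 to 0.35 and Spearman's rho from 0.05 to 0.48, with none past the threshold (permutation within groups, 100000 resamples, two-sided; adjusted p over the 6 pairs 0.758 to 0.925 for r and 0.321 to 0.860 for rho). With all libraries, ENSCAFG00000028912 and ENSCAFG00000024792 had the highest values, with r = 0.35 (permutation p = 0.257) and rho = 0.48 (permutation p = 0.0535), r having the same sign in 4 of 4 groups. For each pair, r was also taken without the 2 libraries farthest from the median deviation of the gene that comes first along the chromosome. The libraries left out thus differed between pairs, and outlying libraries of the other gene could remain. This moved r in most pairs, to between -0.29 and 0.54 over the 6 pairs. The second and the third gene then had r = 0.50, the second and the fourth went to 0.54 with r = -0.03 over all libraries, the first and the second to 0.02 with 0.32 over all, and the first and the fourth to -0.29 with 0.19 over all. At 0 to 713 counts per library, counting error adds to these deviations, and a shared pattern could not be shown at this depth. The spread between animals of a group, as edgeR's biological coefficient of variation, was 0.203 for ENSCAFG00000024944, 0.393 for ENSCAFG00000028912, 0.274 for ENSCAFG00000024792 and 0.306 for ENSCAFG00000032631. Over all tested genes the median was 0.200 and the common value 0.239. Those genes were not matched to the 4 for abundance, so an unusual spread of the 4 cannot be read from this.

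**Figure D4:**
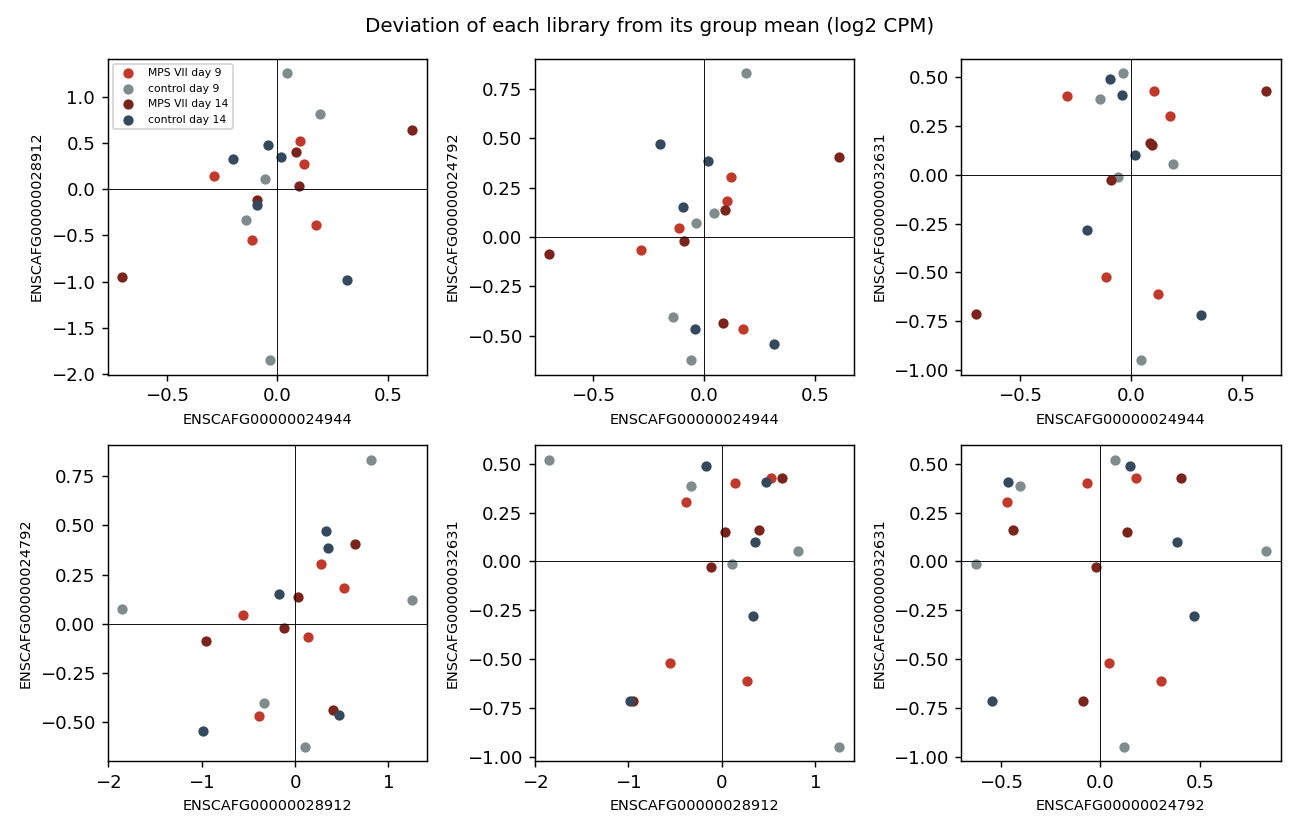
Deviation of each library from the mean of its group (log2 CPM) for the 6 pairs of the 4 genes, 1 point per library, coloured by group. Points scatter without a common line, with r from -0.03 to 0.35.

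The genes most like the mean within-group pattern of the 4 were sought among 11792 tested genes of at least 2 CPM. The best match was on chromosome 18, from 46321292 to 46829537, with r = 0.84 over 20 libraries. The next was on chromosome 28, from 614395 to 900471, with r = 0.80. Matches on chromosome 4 (from 41778325), chromosome 12 (from 2516976) and chromosome 7 (from 8421294) followed with r of 0.78, 0.77 and 0.76. These are the highest of 11792 values and carry no test; the 4 genes themselves had r of 0.46 to 0.68 with the mean pattern they form. Between genotypes the 5 matches did not move alike: 3 were called higher in MPS VII at day 9, and at day 14 the one on chromosome 28 was called higher and the one on chromosome 7 lower (-0.48 ± 0.16, edgeR adjusted p = 0.0395). The gene on chromosome 28 stood higher in MPS VII at both ages, with 9.22 ± 1.62 CPM in MPS VII and 3.25 ± 0.932 CPM in controls at day 9 (log2 fold change 1.498 ± 0.23, edgeR adjusted p = 1.34e-04), and 16.1 ± 5.62 CPM in MPS VII and 10.2 ± 1.18 CPM in controls at day 14 (0.65 ± 0.22, edgeR adjusted p = 0.0347). The one on chromosome 18 was not called between genotypes at either age (0.18 ± 0.27 at day 9, edgeR adjusted p = 0.734; -0.06 ± 0.26 at day 14, edgeR adjusted p = 0.904).

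The stretch of 118 kb holds 6 annotated genes, and the other two were too low to be tested. ENSCAFG00000024942, between the first and the second gene and on the minus strand, had 4 counts over all 20 libraries. ENSCAFG00000004561, between the third and the fourth gene, had 59 counts, 16 in MPS VII and 18 in controls at day 9, and 9 in MPS VII and 16 in controls at day 14. Neither was tested, and at this depth a difference could not be looked for in either.

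Just outside the stretch, the nearest tested gene on the left, 28.3 kb before the first gene's start, had a log2 fold change of 0.75 ± 0.66 between genotypes at day 9 and -0.12 ± 0.64 at day 14. The nearest on the right, from 5984115 to 5992628, had -0.28 ± 0.23 at day 9 and -0.06 ± 0.23 at day 14. Just inside, the first gene had 2.53 at day 9 and 1.24 at day 14, and the fourth had 2.57 and 1.55. The stretch was chosen as neighbours at least 2-fold higher, so lower folds just outside it follow in part from that choice. The smallest folds of the 4, closest to the 2-fold limit, were those of the third gene, which lies inside the stretch. Each of the 4 had to pass that limit wherever it lies, so this place has no bearing on the edges. Of the 3 nearest tested genes on each side, 1 was called between genotypes at day 9, the same one at day 14. Of all tested genes, 6.18% were called higher in MPS VII at day 9 and 11.3% at day 14. The flanking genes are too few to set their count apart from those shares. The called gene lies at 5700922 to 5714204, on the plus strand, 158 kb before the first gene. It stood at 1.81 ± 0.843 CPM in MPS VII and 0.441 ± 0.351 CPM in controls at day 9 (log2 fold change 2.08 ± 0.45, edgeR adjusted p = 0.00453), and at 2.97 ± 0.778 CPM in MPS VII and 1.18 ± 0.348 CPM in controls at day 14 (1.34 ± 0.41, edgeR adjusted p = 0.0230). The day 14 call was lost without MPS VII day 14 replicate 3 or control day 14 replicate 1 or 5, with edgeR adjusted p of 0.0508 to 0.0627. Like the 4 genes it was higher at day 14 than at day 9 in controls (1.45 ± 0.45, edgeR adjusted p = 0.0137), and its change in MPS VII dogs was 0.71 ± 0.40 (edgeR adjusted p = 0.200).

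**Figure D5:**
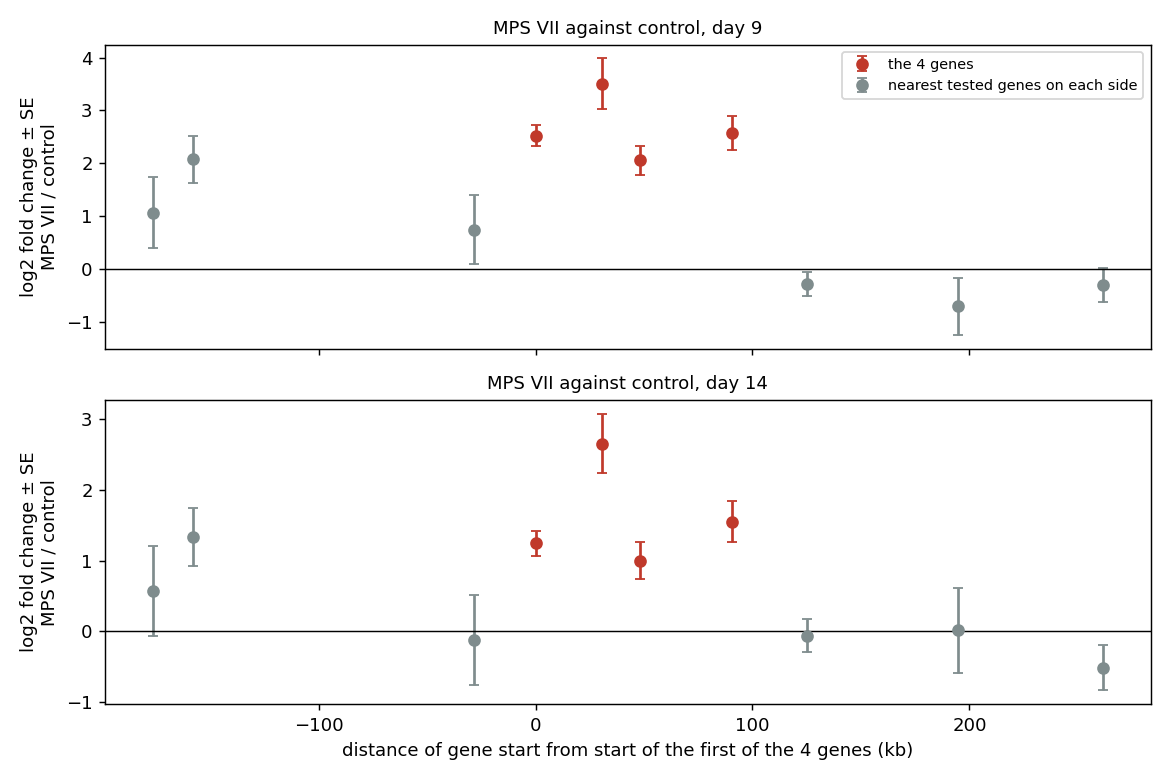
Log2 fold change with standard error for MPS VII over control at day 9 (top) and day 14 (bottom) of the 4 genes (red) and the 3 nearest tested genes on each side (grey), by the distance of each gene's start from that of the first gene in kb. The 4 genes lie between 2.06 and 3.50 at day 9 and between 1.00 and 2.66 at day 14, and of the 6 flanking genes only the one 158 kb before the first gene reaches that height (2.08 and 1.34). The 4 genes were chosen on these comparisons, so lower folds beside them follow in part from the choice.

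For scale, 2 other stretches of neighbouring genes are given as medians with no test. They too were picked on comparisons among these groups, so where their values are high follows in part from that choice. In a stretch of 4 tested genes on chromosome 12 the median log2 fold change between genotypes was 2.62 at day 9 and 2.55 at day 14, and 0.86 with age in controls. In a stretch of 8 tested genes on chromosome 27 it was 0.24 at day 9 and -0.42 at day 14 between genotypes, and 1.74 with age in controls. The 4 genes on chromosome 9 had 2.55 and 1.40 between genotypes and 2.04 with age in controls.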

How the data were processed

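The deposited file holds raw counts per gene with exon positions, strand and summed exon length, per the file headers. RNA of integrity number above 7 was made into stranded mRNA libraries and sequenced in paired 100-base reads, then mapped to CanFam3.1 (annotation from build 77 of Ensembl), per the labels' protocols. Tools named, without their roles, in the submitters' processing notes were STAR 2.4.0j, HTSeq, edgeR, bcl2fastq and CASAVA 1.8.2. The counting's strand setting is not stated there. Of counts from 1 to 199, 65.2% to 76.4% per library were even. Both mates of a pair counted singly would give even counts, so fits were repeated on halved counts. The genes described here differed in this. Of 20 libraries, the count was even in 7 for ENSCAFG00000024944, 18 for ENSCAFG00000028912, 11 for ENSCAFG00000024792 and 12 for ENSCAFG00000032631. Halving may thus not suit these genes alike, and this was not tested.

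Differences were fitted in R 4.3.3 with edgeR 4.0.16 (filterByExpr on the 4 groups, TMM, 1 mean per group over all 20 libraries, robust glmQLFit, glmQLFTest, Benjamini-Hochberg adjustment over 14550 genes, threshold 0.05). The filter dropped 10030 genes with 0.0413% of counts. DESeq2 1.42.0 was an alternative. Standard errors were taken as log2 fold change over the root of the F statistic, and log2 CPM used a prior count of 2. The fit was tested on simulated counts with known folds, but the outcome is not reported here. Those counts held neither mates counted singly nor a library that stands apart, so the simulation does not bear on either. No pair of libraries of 1 group matched within sampling noise (chi-square per gene 17.7 to 649 over 40 pairs). Libraries are taken as separate animals from the design.

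The 4 genes, the lists and the tests were chosen with earlier results of these data known. Named by rule were the 4 genes, all genes inside their stretch, the 3 nearest tested genes on each side, and the 5 tested genes of at least 2 CPM most correlated with the mean of the 4 standardised within-group deviations. Marker lists for cell types were not tested, since no identifier matched a symbol.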

Additional observations from a re-analysis of the deposited data

Results flagged for a closer look

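The change from day 9 to day 14 of ENSCAFG00000024944 differed between genotypes by a test of the difference itself, with a log2 difference of -1.28 (MPS VII minus control, edgeR adjusted p = 0.00966), with changes of 1.39 in MPS VII and 2.68 in controls. This difference is the genotype fold at day 14 minus that at day 9, and both of those comparisons chose the gene, so the p-value is not independent of the choice and is no support for it. The difference ran from -1.45 to -1.13 when each library was left out in turn. In 16 sets of 5 libraries (4 genes in 4 groups), no library lay far enough from the rest to pass Dixon's 95% criterion.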

How the results depend on the processing

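All 4 genes were called higher in MPS VII at day 9, in MPS VII at day 14 and at day 14 in controls under median-ratio scaling, no filter, halved counts, DESeq2, a fit of only the libraries compared, and each library left out. Those 3 comparisons chose the genes, so these calls are not evidence beyond that choice. In the main fit 6.18%, 11.3% and 21.8% of all tested genes were called higher in them. With age in MPS VII 3 were called, where 12.7% of all tested genes were called higher in the main fit, and 2 to 3 with a library left out. For the difference of the age changes 1 was called, where 2.43% of all tested genes were called in that direction in the main fit. With a library left out 1 to 2 were called. Without control day 9 replicate 1 ENSCAFG00000024792 was called too (-1.36, edgeR adjusted p = 0.0335). A fit of only the libraries compared called 711 of all genes at day 9 (1220 in the fit of all libraries) and 1466 with age in MPS VII (3297); it does not apply to the difference of the age changes, which uses all libraries. For that difference 474 genes were called, 938 by DESeq2, and 199 (without control day 14 replicate 4) to 759 (without MPS VII day 9 replicate 3) with a library left out. The share of the first gene in the 4-gene sum, as a mean over 20 libraries, was 62.5% per exon base and 47.5% of counts not scaled by length. The cause of these shifts was not tested, apart from the length scaling. No pair of genes passed for covariation under any alternative run. Low counts limit the second gene most, at 0 to 14 counts per control library of day 9. No paired analysis was possible because the labels give no replicate numbers or litters. The replicate numbers used here follow the order of the samples within each group.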
